A study of Mus musculus with 2 samples.

Results

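The genes described here carry out the urea cycle, the breakdown of amino acids and the transfer of single-carbon units in the liver. They were chosen by name. The rule listed 57 gene symbols. It took every probe set to which the platform annotation gives exactly 1 gene symbol, that symbol being among the 57, and it sets no limit on the arrays' values. In all, 53 of the 57 genes were measured in this way, out of 22180 genes that the arrays measured. The other 4, Gls2, Sds, Sdsl and Tdh, were not analysed here because the annotation used pairs no probe set with their symbols. Liver RNA came from male mice of genotype Iah1-WT (WT) or Iah1-KO (KO), the latter lacking in the whole body the gene Iah1, a homologue of a yeast esterase that cleaves isoamyl acetate. All animals were given high-fat food from 6 weeks of age, stayed on it for 12 weeks and had food withheld for 4 hours before the liver was taken. RNA of 3 mice was pooled for each genotype and put on 1 Affymetrix whole-transcript array. Strain, allele type and litter are not given in the sources used here.

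The liver disposes of surplus nitrogen by the urea cycle, which begins in the mitochondrion with carbamoyl phosphate and citrulline and continues in the cytosol through argininosuccinate, arginine and urea. Aminotransferases and glutamate dehydrogenase deliver that nitrogen, while separate enzyme chains break down the carbon skeletons of tyrosine, tryptophan, histidine, glycine, lysine, proline and the branched-chain amino acids. The methionine cycle makes S-adenosylmethionine, the main methyl donor, and folate carries the single-carbon units that serine, glycine and histidine release. Many of these enzymes are hepatocyte products, several are more abundant near the portal vein, and fasting hormones regulate a number of them.

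Each genotype has a single measurement, so the spread between mice cannot be estimated and no test of genotype was made. Words such as higher and lower describe the KO array against the WT array, and differences are KO minus WT on the log2 scale of the RMA values (RMA is the standard background correction, quantile normalization and probe summary for these arrays). The targeted gene bears out the labels, since the signal of Iah1 was 8.59 (WT) against 3.90 (KO), the latter below the intensity filter described next. A gene entered the comparison where the higher of its values reached 4.68, the median of that quantity over all genes, and 11090 genes did. Probe sets of the same gene give the only measure of spread in the files, with an SD of 0.27 for a probe set's difference over 604 genes, and 0.10 over the 27 genes whose probe sets were all bright. It covers probes, not animals or hybridisations. The hepatocyte markers checked against the liver label all passed, 9 of 9 measured, with signals between 10.4 (Fga) and 13.3 (Alb, albumin) and differences between -0.07 (Ahsg) and 0.014 (Apoa1). A probe set's signal also depends on its probes, so signals of different genes are not compared as amounts of RNA.

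Most genes of amino acid metabolism had nearly the same signal in both arrays. Of the 53 measured members, 52 passed the intensity filter, and their median difference was -0.036, against -0.025 for all genes compared. A difference of 1.5-fold or more (0.585 on the log2 scale) was found for 1 of the 52, Ass1, which was lower in KO. Of all genes compared, 3.92% lay that far apart, 2.45% lower and 1.47% higher. At 1.2-fold or more (0.26) there were 5, of which 4 were lower and 1 was higher in KO. This split depended on the scaling, and was 2 lower and 2 higher after the median difference of all genes or a loess fit on signal was subtracted, and 3 lower and 2 higher after the arrays were quantile normalized again. The 5 are 9.62% of the members, and 23.7% of all genes compared lay that far apart (14.4% lower and 9.3% higher). A total of 41 members (78.8%) lay within 1.1-fold, as did 50.7% of all genes compared. The 1.1-fold limit was chosen after the values were seen.

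**Figure D1:**
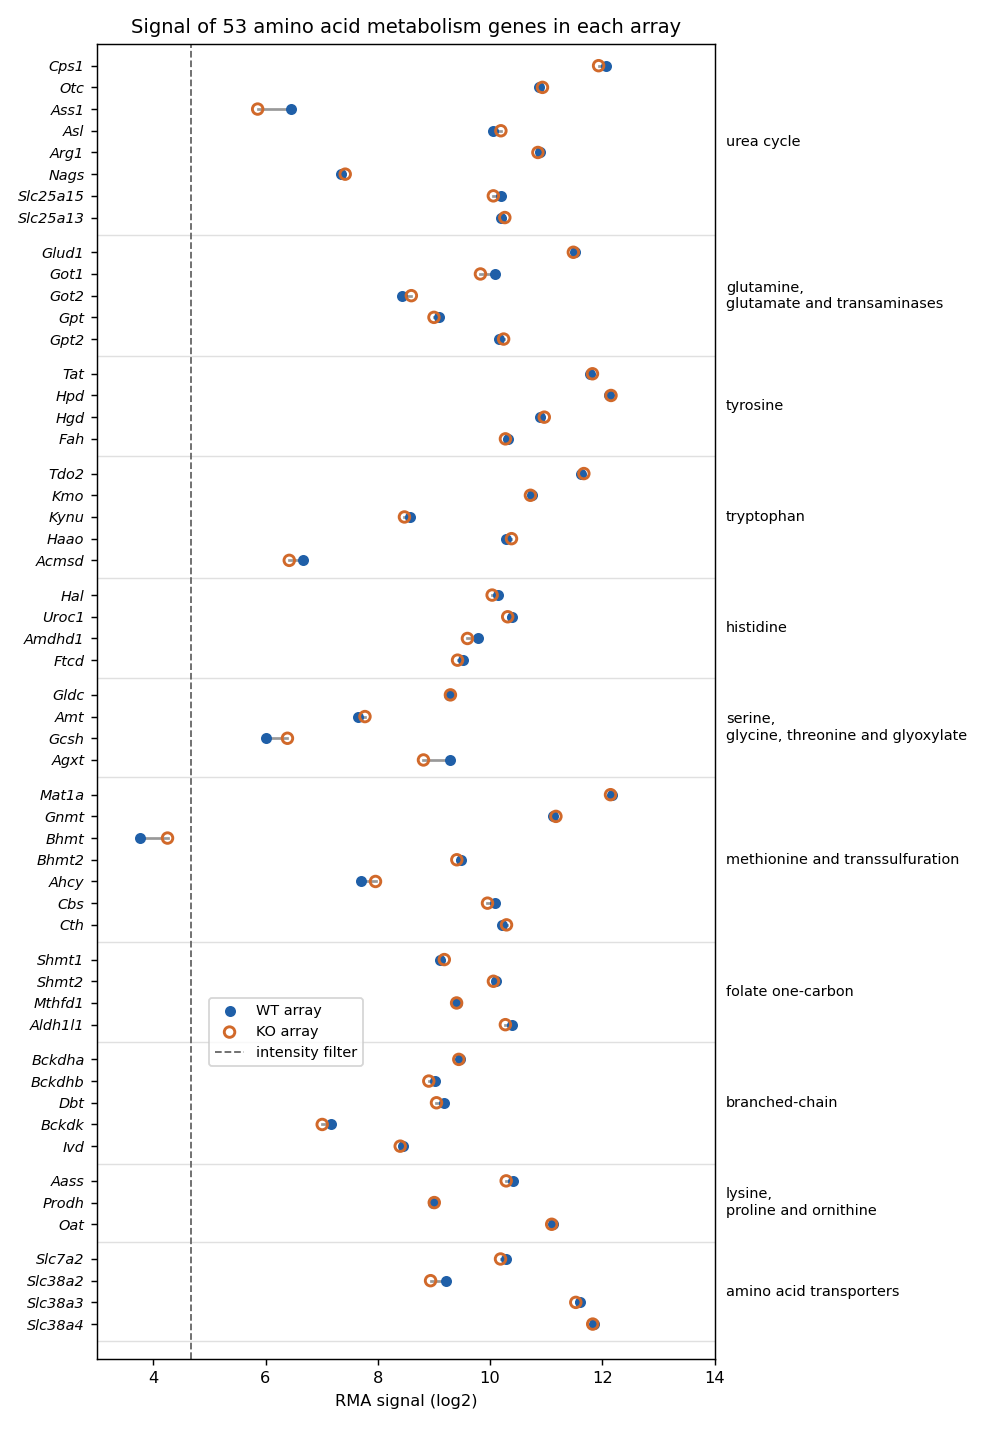
RMA signal (log2) of each measured member in the WT array (filled blue) and the KO array (open orange), by pathway, with the intensity filter as a dashed line. Most pairs of symbols overlap, the gaps of Ass1 (6.46 and 5.86), Agxt (9.29 and 8.81) and Gcsh (6.01 and 6.39) can be seen, and Bhmt lies left of the filter in both arrays.

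The members were bright genes, and bright genes varied less between these arrays. Of the 52, 47 belonged to the brightest 25% of the genes compared, which begins at a mean signal of 7.63. Within this bright part, 3 of 47 members (6.38%) reached 1.2-fold, while 7.32% of the 2773 bright genes did. None of the 47 reached 1.5-fold, as against 0.721% of bright genes. The share within 1.1-fold was 85.1% for these members and 72.3% for bright genes. The SD of the differences was 0.126 for the 47 members and 0.158 for the bright genes. Read against this bright part as a whole, the share of members past 1.2-fold was thus close to the background. Genes were not matched to the members in brightness, and many members lay well above the start of this part. The other 5 members were Ass1, Nags, Acmsd, Gcsh and Bckdk, and 2 of these dimmer genes passed 1.2-fold, where 29.1% of the dimmer genes compared did.

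**Figure D2:**
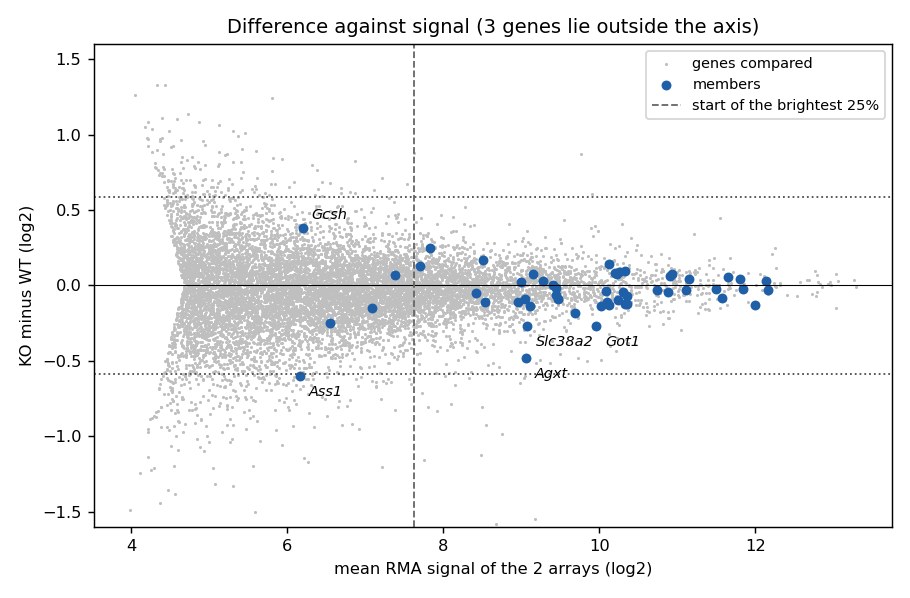
KO minus WT (log2) against the mean signal of the arrays (log2) for the 11090 genes compared (grey) and the 52 members (blue); dotted lines mark 1.5-fold and the dashed line the start of the brightest 25%. The members sit mainly on the right, where the grey cloud is narrow, and Ass1 at -0.60 is the member beyond a dotted line.

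**Figure D3:**
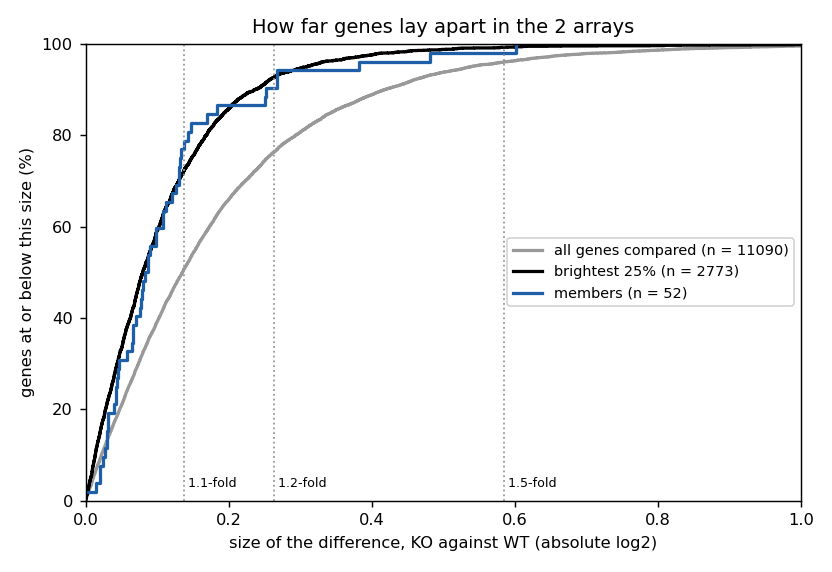
Share of genes (%) whose difference is no larger than the size on the horizontal axis (absolute log2), for members, all genes compared and the brightest 25%. The members' line follows that of the bright genes, with a median size of 0.085 for members, 0.080 for bright genes and 0.135 for all genes compared.

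The 5 members past 1.2-fold come from 4 pathway lists, since Agxt and Gcsh share the serine, glycine, threonine and glyoxylate list. Ass1, argininosuccinate synthase, which joins citrulline and aspartate in the urea cycle, was at 6.46 in WT and 5.86 in KO, 1.52-fold lower (-0.60). This value lay just past the 1.5-fold limit of 0.585 and came from a single probe set outside the bright part. The urea cycle enzymes Cps1, Otc, Asl and Arg1 read between 10.05 (Asl) and 12.07 (Cps1) in WT. Whether the dim Ass1 probe set reports the transcript well was not tested, so its fold is a reading of that probe set only. Ass1 was -0.576 after the median difference of all genes was subtracted, -0.56 after a loess fit on signal was subtracted and -0.56 after the arrays were quantile normalized again, and in each of these it was short of 1.5-fold. Agxt, the peroxisomal enzyme that turns glyoxylate and alanine into glycine and pyruvate, was at 9.29 in WT and 8.81 in KO, 1.396-fold lower (-0.48). It showed the largest difference among the bright members and ranked 34 from the lowest of 2773 bright genes.

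Got1, the cytosolic aspartate aminotransferase, was at 10.10 in WT and 9.83 in KO, 1.204-fold lower (-0.27). Slc38a2, a sodium-coupled carrier of small neutral amino acids, was at 9.21 and 8.94, 1.203-fold lower (-0.27). Both only just passed the 1.2-fold limit, Slc38a2 failed it under each of the 3 other scalings (-0.24 to -0.25) and Got1 under 2 of them (-0.24 and -0.26). Gcsh, the lipoyl-carrying H protein of the glycine cleavage system, was at 6.01 in WT and 6.39 in KO and was the member that was higher, by 1.303-fold (0.38). Acmsd, at -0.25, and Ahcy, at 0.25, lay just short of the limit. Ahcy passed it under each of the 3 other scalings (0.275 to 0.281), and Acmsd under none of them. The Ahcy mean rests largely on its dimmer probe set (0.37), and the brighter probe set alone, at 0.13, lay well short of 1.2-fold. Each of the 5 genes had a single probe set, so no probe set agreement can be given for them.

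The promoters of these 5 genes are shown because they carry the members' largest differences. Each is the run of 250 bases before the RefSeq gene start on GRCm38.p6, written from 5′ to 3′ on the gene's strand. They were taken from chr2:31470020-31470269 (plus strand) for Ass1, chr1:93134990-93135239 (plus strand) for Agxt, chr19:43524606-43524855 (minus strand) for Got1, chr15:96699729-96699978 (minus strand) for Slc38a2 and chr8:116993499-116993748 (minus strand) for Gcsh. Capitals mark matches, on either strand, to CCAAT (the CCAAT box), TGACG (part of the cAMP response element, the site of CREB factors) and TATAAA (the TATA box).
Ass1: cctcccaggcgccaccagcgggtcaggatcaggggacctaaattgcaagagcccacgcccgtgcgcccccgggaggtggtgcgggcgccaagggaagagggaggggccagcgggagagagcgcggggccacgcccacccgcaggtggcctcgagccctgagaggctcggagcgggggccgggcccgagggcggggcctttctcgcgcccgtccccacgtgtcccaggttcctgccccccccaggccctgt
Agxt: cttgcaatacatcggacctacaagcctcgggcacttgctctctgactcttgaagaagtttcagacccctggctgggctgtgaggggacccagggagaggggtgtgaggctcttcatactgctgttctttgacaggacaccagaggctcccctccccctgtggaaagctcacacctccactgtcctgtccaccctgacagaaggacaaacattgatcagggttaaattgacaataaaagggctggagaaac
Got1: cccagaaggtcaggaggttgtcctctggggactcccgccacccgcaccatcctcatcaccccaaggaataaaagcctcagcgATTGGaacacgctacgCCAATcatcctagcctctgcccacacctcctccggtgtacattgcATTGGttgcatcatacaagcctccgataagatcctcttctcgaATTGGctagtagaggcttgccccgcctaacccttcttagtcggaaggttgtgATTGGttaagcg
Slc38a2: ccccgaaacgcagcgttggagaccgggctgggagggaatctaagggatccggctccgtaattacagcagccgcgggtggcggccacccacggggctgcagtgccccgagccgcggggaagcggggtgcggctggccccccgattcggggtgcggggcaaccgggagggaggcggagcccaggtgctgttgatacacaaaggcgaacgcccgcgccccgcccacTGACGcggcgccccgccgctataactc
Gcsh: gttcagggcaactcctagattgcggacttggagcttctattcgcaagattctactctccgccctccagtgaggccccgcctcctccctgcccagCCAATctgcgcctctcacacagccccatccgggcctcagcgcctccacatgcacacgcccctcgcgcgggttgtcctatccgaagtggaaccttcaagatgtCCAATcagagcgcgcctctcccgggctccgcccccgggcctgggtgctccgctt
Got1 held 5 CCAAT matches and Gcsh 2, Slc38a2 held 1 TGACG match, and no match was found in the other windows. Among the first listed promoters of 27025 genes, CCAAT was present in 34.5%, TGACG in 17.9% and TATAAA in 13%. The set of promoter sequences held 43 members by gene symbol, and 23 of these promoters held CCAAT, 6 held TGACG and 6 held TATAAA. The share of G and C was 75.6% for Ass1, 72% for Slc38a2, 64.4% for Gcsh, 54.4% for Got1 and 53.6% for Agxt, against a median of 52% over all promoters. No array value bears on these sites, and a match describes only the letters.

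Genes of the urea cycle went both ways. All 8 passed the filter, 4 were above 0 and 4 below, the median was 0.011, and the mean, which Ass1 pulls down, was -0.070. Cps1, carbamoyl phosphate synthetase, which commits ammonia to the cycle, had the highest signal of the list, at 12.07 in WT and 11.93 in KO (-0.13). Nags, whose product N-acetylglutamate activates that enzyme, was at 7.35 and 7.42 (0.067), but its probe sets disagreed in sign, at 0.32 for the brighter and -0.18 for the dimmer. Otc, ornithine transcarbamylase, was at 10.87 and 10.93 (0.064). Ass1 and Asl, the consecutive enzymes that make and split argininosuccinate, went opposite ways, with Asl at 10.05 in WT and 10.19 in KO (0.14) beside Ass1 at -0.60. Arg1, the arginase that releases urea, was at 10.90 and 10.85 (-0.043). Of the mitochondrial carriers, Slc25a15, which exchanges ornithine for citrulline, was at -0.13, and Slc25a13 (citrin), which exports aspartate, was at 0.076.

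Enzymes that feed nitrogen to the cycle were also close together in the arrays, with a median of -0.024 over the 5 measured genes of 6 listed. Glud1, glutamate dehydrogenase, was the brightest at 11.51 in WT and 11.48 in KO (-0.024). The cytosolic and mitochondrial aspartate aminotransferases had opposite signs, Got1 at -0.27 and Got2 at 0.17 (8.43 in WT and 8.60 in KO). Got2 had a bright probe set at 0.051 and a dim probe set at 0.29, so its mean rests largely on the dim probe set. The alanine aminotransferases differed less, with Gpt, the cytosolic form, at 9.09 in WT (-0.088) and Gpt2, the mitochondrial form, at 10.16 and 10.24 (0.083).

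Genes of the tyrosine pathway lay between -0.045 and 0.078, with 3 of 4 above 0 and a median of 0.037 (55.7% of all genes compared lay below 0). Tat, tyrosine aminotransferase, which starts the pathway and is a textbook target of glucocorticoids and glucagon, was at 11.78 in WT and 11.82 in KO (0.044). Hpd, the dioxygenase that makes homogentisate, had the highest signal at 12.13 and 12.15 (0.029). Hgd, which opens the homogentisate ring, was at 0.078 and Fah, which completes the pathway and is deficient in hereditary tyrosinaemia, was at -0.045. In the kynurenine pathway of tryptophan, 2 of 5 genes lay above 0, beside the same share of all genes, and the median was -0.032. Tdo2, tryptophan dioxygenase, the hepatic entry step, was at 11.61 in WT and 11.67 in KO (0.058). Kmo, which hydroxylates kynurenine, was at -0.032, Kynu, which cleaves kynurenine products, at -0.11, and Haao, which leads to quinolinate, at 0.098. Acmsd, the decarboxylase that diverts the pathway away from NAD synthesis, was at 6.68 and 6.42, 1.19-fold lower (-0.25). A further probe set that names Acmsd also names another gene and was not used.

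All 4 genes of histidine breakdown were lower in the KO array, by small amounts. They stayed below 0 under each of the 3 other scalings, but these moved values too little to be a real check. The list's median lay between -0.095 and -0.077 under them. The median was -0.10, and 55.7% of all genes compared lay below 0. Hal, histidine ammonia-lyase, the entry step, was at 10.15 in WT and 10.04 in KO (-0.11). Uroc1, urocanate hydratase, had the highest signal, at 10.39 and 10.31 (-0.071). Amdhd1, the imidazolonepropionase, was at 9.78 and 9.60, 1.14-fold lower (-0.18), and Ftcd, which passes the formimino group to folate, was at 9.51 and 9.42 (-0.090). None of the 4 reached 1.2-fold.

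Serine, glycine and glyoxylate genes had the widest range of the 11 pathways. Of 7 listed, 4 were measured, with differences from -0.48 to 0.38 and a median of 0.079. The 3 components of the glycine cleavage system that belong to this list lay above 0 (55.7% of all genes compared lay below 0). Gldc, the decarboxylase (P protein), was at 9.27 in WT and 9.29 in KO (0.027), Amt, the T protein, was at 7.64 and 7.77 (0.13), and Gcsh was at 0.38 as given above. Dld, the dehydrogenase (L protein) that this complex shares with other complexes, was at 9.80 and 9.78 (-0.018). Of the other glyoxylate genes, listed as no members, Hao1, which makes glyoxylate from glycolate, was at -0.08, Grhpr, which reduces it, at 0.025, Hoga1, which releases it from hydroxyproline breakdown, at -0.13, and Agxt2, a mitochondrial aminotransferase, at -0.046. Agxt itself, at -0.48, was thus the glyoxylate gene among these 5 that passed 1.2-fold.

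**Figure D4:**
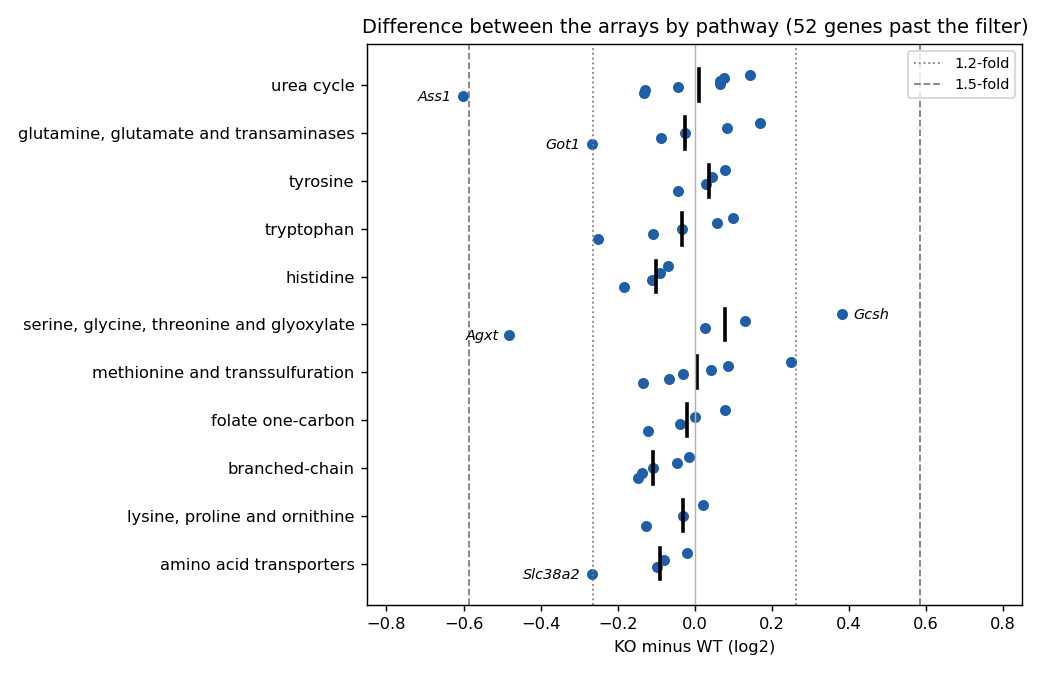
KO minus WT (log2) of the 52 members past the filter by pathway; points are genes, black bars are pathway medians, and lines mark 1.2-fold (dotted) and 1.5-fold (dashed). Pathway medians lie between -0.11 (branched-chain) and 0.079 (serine, glycine, threonine and glyoxylate), and 5 points reach or pass a dotted line.

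The methionine cycle and transsulfuration showed no common direction, with 3 of 6 genes above 0 and a median of 0.0061. Mat1a, the liver methionine adenosyltransferase that makes S-adenosylmethionine, had the highest signal of all members, at 12.18 in WT and 12.15 in KO (-0.031). Gnmt, glycine N-methyltransferase, which uses up surplus S-adenosylmethionine, was at 11.13 and 11.17 (0.043). Ahcy, which splits the S-adenosylhomocysteine that methylation leaves, was at 7.71 and 7.96, 1.19-fold higher (0.25). Its brighter probe set was at 0.13 and its dimmer probe set at 0.37. In transsulfuration, Cbs, cystathionine beta-synthase, was at -0.13, while Cth, the following enzyme, was at 0.087. Of the enzymes that methylate homocysteine outside the folate route, Bhmt2 was at 9.47 and 9.41 (-0.066). Bhmt was the member that failed the filter, with 3.77 in WT and 4.25 in KO from a single probe set. Betaine-homocysteine methyltransferase is known as an abundant liver enzyme. Whether this probe set reports its transcript was not tested, and no fold is given.

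The 4 folate enzymes lay within 1.1-fold, as did 50.7% of all genes compared and 72.3% of the brightest 25%. Their median was -0.020. Mthfd1, the trifunctional enzyme that interconverts the folate forms, was at 9.40 in both arrays (-0.00061). Shmt1 and Shmt2, the cytosolic and mitochondrial serine hydroxymethyltransferases, were at 0.079 and -0.040. Aldh1l1, which oxidises formyl-folate to carbon dioxide, had the highest signal of the list, at 10.39 in WT and 10.27 in KO (-0.12).

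The branched-chain genes were all lower in the KO array, 5 of 5, with a median of -0.11 (55.7% of all genes compared lay below 0, with a median of -0.025), but 4 of 5 after the median difference of all genes was subtracted, when Bckdha turned to 0.010. Of the components of the branched-chain ketoacid dehydrogenase, Bckdha was at 9.46 in WT and 9.44 in KO (-0.015), Bckdhb at 9.02 and 8.91 (-0.11) and Dbt, the transacylase core, at 9.18 and 9.05 (-0.14). Bckdk, the kinase that switches the complex off, was the lowest of the list at 7.16 and 7.01, 1.11-fold lower (-0.15), and Ppm1k, the phosphatase that switches it on (no member), was at -0.052. Ivd, which acts next in leucine breakdown, was at -0.047. None of these reached 1.2-fold.

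The remaining enzymes, of lysine, proline and ornithine, lay between -0.13 and 0.020. Aass, which starts lysine breakdown, was at 10.41 in WT and 10.29 in KO (-0.13). Prodh, proline dehydrogenase, was at 8.99 and 9.01 (0.020), and Oat, ornithine aminotransferase, which in liver is a pericentral enzyme, was the brightest at 11.13 and 11.10 (-0.030).

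Amino acid carriers at the cell surface were all lower, 4 of 4 with a median of -0.090 (against 55.7% of all genes compared and a median of -0.025), and 3 of 4 after the median difference was subtracted, when Slc38a4 was at 0.0039. Slc38a4 and Slc38a3, the other members of the Slc38 family here, had the higher signals. Slc38a4 was at 11.85 in WT and 11.83 in KO (-0.021), and Slc38a3, which carries glutamine, was at 11.61 and 11.53 (-0.080). Slc7a2, a carrier of cationic amino acids such as arginine, was at 10.29 and 10.19 (-0.099). Slc38a2, at -0.27 as given above, was the carrier that reached 1.2-fold.

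Other genes of the same pathways, taken from lists that hold no member, had a median close to that of the members. Of 101 such genes, 90 were measured and 82 passed the filter, with a median of -0.031. With the filter put in place of any value below it, 3 were higher and 4 lower by 1.2-fold or more (8.54% of 82) and 1 was lower by 1.5-fold or more. Counted in the same way, 20.4% of all genes compared passed 1.2-fold and 2.34% passed 1.5-fold. By the RMA values themselves the counts were 5 higher and 5 lower (12.2%, against 23.7% of all genes compared) and 2 past 1.5-fold. The 11 genes that process aromatic amino acids stayed within 1.2-fold, from Qprt, which makes NAD precursors from quinolinate, at -0.17 to Ddc, the aromatic amino acid decarboxylase, at 0.20. Kyat3 was at 0.14 and Ido2 at 0.13. Past 1.2-fold lay 23.7% of all genes compared and 7.32% of the brightest 25%, to which most of the aromatic list belongs. In the downstream branched-chain and propionate list 17 of 19 were within 1.1-fold (89.5%). The share was 50.7% for all genes compared and 72.3% for the brightest 25%, to which most of this list belongs. Among its genes above the filter in both arrays, Bcat2 (0.16), Mmaa (0.12) and Acad8 (-0.11) lay farthest from 0. Bcat1, the cytosolic branched-chain aminotransferase, was at 4.18 in WT, below the filter, and 4.70 in KO, which gives only a bound of at least 1.02-fold.

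The largest difference among these pathway genes was that of Slc7a8, the light chain of a neutral amino acid exchanger, at 7.19 in WT and 6.42 in KO, 1.70-fold lower (-0.76). Among other carriers, Slc43a1, which moves large neutral amino acids, was at 5.63 and 5.13, 1.41-fold lower (-0.50). Slc1a4, a carrier of alanine and serine, was at 5.33 and 5.59, 1.201-fold higher (0.26), and Slc25a12 (aralar), the other mitochondrial aspartate carrier, was at 7.21 and 6.95 (-0.26). In all, 11 of 15 transporters past the filter lay below 0, with a median of -0.085, and Slc38a1 among the 15 passed through the KO array alone. In the serine, glycine and choline list 10 of 13 lay below 0, Phgdh among them, and Gatm, which begins creatine synthesis, was at -0.19. Of all genes compared, 55.7% lay below 0, with a median of -0.025. Phgdh, the entry enzyme of serine synthesis, measured 4.93 in WT against 4.47 in KO, and since its KO value lay below the filter it has only a bound of at least 1.19-fold lower.

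In the methionine, cysteine and folate list, Mthfd1l, a mitochondrial formate-producing enzyme, was at 5.19 in WT and 4.59 in KO, at least 1.43-fold lower against the filter, and Mthfs, which returns folinic acid to the folate pool, was at -0.26. Csad, which makes hypotaurine for taurine synthesis, was at 7.33 and 7.70, 1.29-fold higher (0.37). Folr2, a folate receptor of tissue macrophages, was at 7.55 and 7.11, 1.36-fold lower (-0.45). All 12 macrophage and Kupffer cell markers lay below 0 in the same array, as did 55.7% of all genes compared. Their median was -0.47, from -0.81 (C1qb) to -0.088 (C1qc), and Cd14 among them passed the filter through the WT array alone. The summed signal of these markers on the linear scale was 2344 in WT and 1628 in KO. In whole tissue, fewer cells of a type and less RNA per cell cannot be told apart. The part of these cells in the Folr2 value was not tested.

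In the glutamine, asparagine, proline and arginine list 7 of 9 genes lay above 0, with a median of 0.10. Of all genes compared, 55.7% lay below 0, with a median of -0.025. The 7 include Asns, which passed the filter through the KO array alone, and Glul, whose bright probe set hardly differed. Asns, asparagine synthetase, was at 4.24 in WT and 4.74 in KO, at least 1.05-fold higher against the filter. Odc1, which makes putrescine from ornithine, was at 7.31 and 7.57 (0.26), and Aspg was at -0.15. Glul, the pericentral glutamine synthetase, had a mean of 0.40, but its bright probe set, at 11.18 in both arrays, differed by 0.0029 and its dim probe set by 0.80.

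Among 17 regulators linked to these pathways, Onecut1 stood at the low end. This liver transcription factor, also called HNF6, was at 8.33 in WT and 7.17 in KO, 2.23-fold lower (-1.16), from 1 probe set. The other 16 lay within 1.2-fold, and the median of the 17 was 0.010. Past 1.2-fold lay 23.7% of all genes compared and 7.32% of the brightest 25%, and past 1.5-fold 3.92% and 0.721%. Creb3l3, a fasting-responsive factor of the endoplasmic reticulum membrane, was at -0.21, Foxo1, which insulin inactivates, at 0.23 with probe sets at 0.0055 and 0.44, and Ddit3, a stress factor, at 0.19. Factors with direct roles in urea cycle and amino acid genes had small differences, with Hnf4a at -0.07, Cebpa at 0.10, Klf15 at 0.051, the glucagon receptor gene Gcgr at 0.18, the glucocorticoid receptor gene Nr3c1 at -0.0059 and Atf4 at 0.18. Nr3c1 changed sign under all 3 other scalings.

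**Figure D5:**
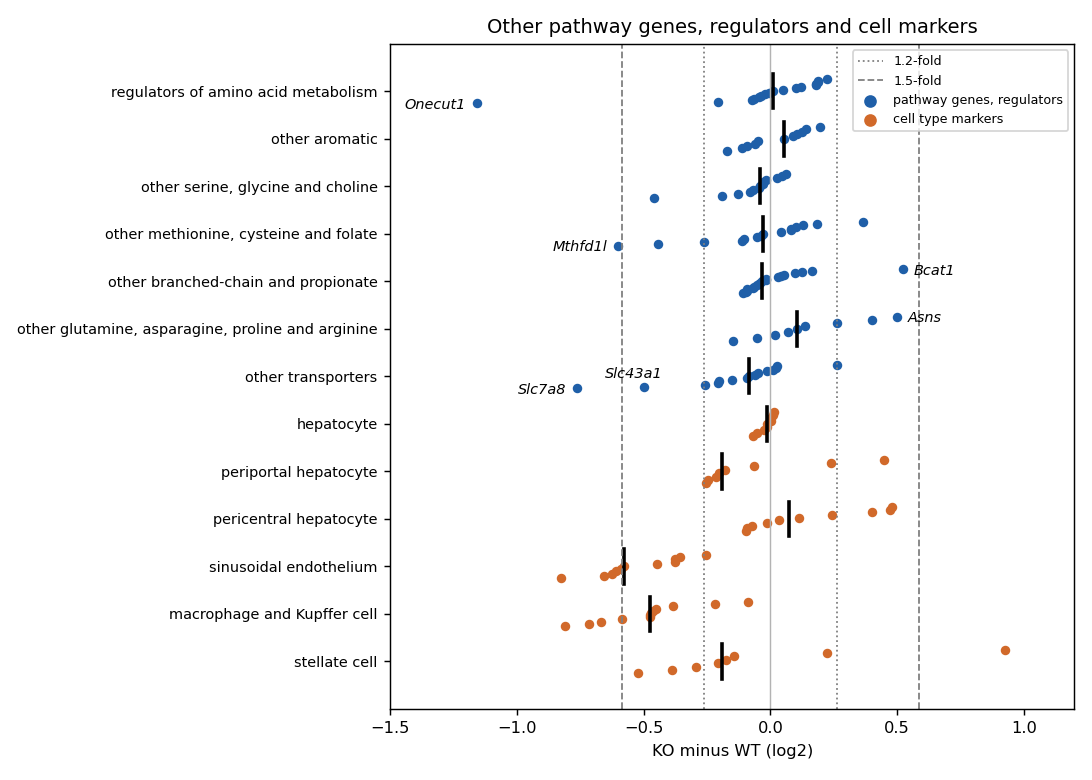
KO minus WT (log2) of genes past the filter in the lists without members (blue) and in marker lists (orange); points are genes, black bars are medians, and lines mark 1.2-fold (dotted) and 1.5-fold (dashed). Onecut1 lies at -1.16, the hepatocyte markers lie close to 0, and all markers of sinusoidal endothelium and macrophages lie below 0.

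Since several members are known to be zoned along the liver lobule, zone markers that are no members were set beside them. Periportal markers had 6 of 8 genes below 0 and a median of -0.19, with Ctsc, a lysosomal protease, at -0.26 and Apoa4, an apolipoprotein, at 0.45. Bright Hsd17b13, G6pc and Igfbp2 lay between -0.21 and -0.18, and Pck1, brighter still, was at -0.066. Sult5a1 (-0.25) was dim, at 5.76 in WT, and Cyp2f2 (0.24) rested on its dim probe set. Pericentral markers had 6 of 10 above 0 and a median of 0.072. Of all genes compared, 55.7% lay below 0. Axin2 (0.48) and Cyp2a5 (0.47) were dim, at 4.71 and 4.88 in WT, and Glul (0.40) rested on its dim probe set. The bright pericentral genes Cyp2e1 (-0.013), Cyp1a2 (-0.073) and Rgn (-0.0975) lay below 0, and bright Gulo (0.11) above. Members with textbook periportal expression in the urea cycle and histidine lists had the values given above, with medians of 0.011 and -0.10. Of the cell types other than hepatocytes, sinusoidal endothelium had 11 of 11 markers below 0 (median -0.58, summed linear signal 3001 in WT and 2097 in KO), and stellate cells 6 of 8 (median -0.19). The stellate markers above 0 were Col1a1 (0.22) and Des, which was at 3.75 in WT and passed the filter through the KO array alone. The summed signal of the 9 hepatocyte markers was 49108 in WT and 48355 in KO. Markers of blood leukocytes, bile ducts, kidney and pancreatic acini passed the filter for 1 of 8, 1 of 5, 1 of 5 and 2 of 4 measured genes. The part of these cell types in the members' small differences was not tested.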

How the data were processed

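The deposited table holds log2 values, 1 per probe set and array, which the authors made with RMA in Affymetrix Expression Console 1.3.0, per the submitters' processing notes. RMA makes the probe distributions of arrays alike, so a general change in RNA amount would not be seen, and the summarised gene values kept a median difference of -0.025. No genome build is named for the probe sets. Of 41345 probe sets, 23521 had 1 gene symbol in the platform annotation. A gene's value was the mean of its probe sets. All 53 measured members matched RefSeq (GRCm38.p6) by gene identifier. The arrays' number, 1 per genotype, limits the precision, and no test was made. Lists are given by counts and medians beside those of all genes compared.

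The members, gene lists and fold limits were chosen with earlier results of these data known. Named were members past 1.2-fold, each pathway's brightest member, and up to 4 genes of each other list with the largest difference; further genes are named for their role. Alternatives were no filter, a stricter filter (75th percentile), subtraction of a loess fit (span 0.4) or of the median difference, repeated quantile normalization, a gene's brightest probe set, other folds and list means. Python 3.11.15 with pandas 2.3.3 and statsmodels 0.14.6 was used, and the counting step was tested on simulated data.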

Additional observations from a re-analysis of the deposited data

How the results depend on the processing

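The count of members past 1.5-fold was 1 in the main setting, without a filter and where a gene's brightest probe set was taken. It was 0 with the filter at the 75th percentile (where Ass1 was left out), after the loess fit, after quantile normalization again, after subtraction of the median difference, and at 2-fold. The count past 1.2-fold was 5, and 4 to 6 under the 5 alternatives that kept the fold limit and did not raise the filter. It was 3 with the filter at the 75th percentile, which left out Ass1 and Gcsh, 3 at 1.3-fold and 11 at 1.1-fold, the last chosen after seeing the data. The members' median stayed between -0.042 and -0.011 under all 7 alternatives run. The recomputed pathway medians are a weak check, because many repeat the main value by construction. Taking the brightest probe set left every pathway median as it was, and dropping the filter changed only that of the methionine list. All 77 recomputed pathway medians moved by less than the spread expected from probe sets (their SD of 0.27 divided by the square root of the number of genes). With the SD of 0.10 of bright probe sets, 74 did, and the others were the urea cycle with the filter at the 75th percentile (0.064) and by its mean (-0.070) and the serine list by its mean (0.015). The differences of the 5 members past 1.2-fold kept their sign in all 28 recomputed values, which could hardly have come out otherwise. Each of the 5 has a single probe set, so the filter and probe set alternatives repeat the main value. The other scalings shift values by much less than these differences. Medians close to 0 have no settled sign: the urea cycle lay between -0.070 and 0.064, the methionine list between -0.020 and 0.043 and the folate list between -0.021 and 0.0046. No paired analysis was possible because each genotype has 1 array, and no array could be left out. Dim probe sets, such as those of Ass1, Gcsh and Bhmt, limit what can be read from small differences.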

Other observations

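Lists next to these pathways, chosen after the data were seen, add some values. The malate-aspartate shuttle carries reducing equivalents into mitochondria and shares its aminotransferases and citrin with the members. In it, 4 of 7 genes lay above 0 (55.7% of all genes compared lay below 0) and the median was 0.0031. Mdh1 and Mdh2, the cytosolic and mitochondrial malate dehydrogenases, were at 0.0031 and 0.071, and Slc25a11, the oxoglutarate carrier, was at -0.0092. Got1 (-0.27) and Slc25a12 (-0.26) were the genes farthest from 0.

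Polyamine genes went both ways. Sat1, which acetylates spermidine and spermine for export or breakdown, was at 8.14 in WT and 7.71 in KO, 1.35-fold lower (-0.43), and Smox, spermine oxidase, was at 5.14 and 4.86 (-0.28). Odc1 (0.26) and Azin1, which protects the enzyme from degradation, at 8.70 and 8.89 (0.19), lay above 0, and Oaz1, the antizyme, was at -0.061. In taurine synthesis and use, 4 of 6 genes lay above 0 (55.7% of all genes compared lay below 0). Csad was at 0.37 and Baat, which conjugates bile acids with taurine or glycine, was at 9.19 in WT and 9.44 in KO (0.25), while Cdo1, which oxidises cysteine, was at -0.11 and the taurine carrier gene Slc6a6 at -0.075.

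Where genes of the lists had a bright and a dim probe set, the dim probe set showed the higher difference in several cases. It was at 0.80 against 0.0029 for Glul, 0.46 against 0.022 for the periportal gene Cyp2f2 and 0.29 against -0.098 for Aldh6a1. For Got2 it was at 0.29 against 0.051, and for Ahcy at 0.37 against 0.13. Nags ran the other way, at -0.18 for the dim and 0.32 for the bright probe set. Means over such probe sets, used throughout, can differ from the value of the bright probe set.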
